A study of Mus musculus with 6 samples.

Results

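The replication-dependent and linker histone genes were examined in RNA-seq data of neonatal cardiomyocytes (CMs) that had been exposed to α-ketoglutarate (αKG). Members were the protein-coding genes of the deposited table whose symbol begins with H1f, H2ac, H2bc, H3c or H4c and a number, or with an older Hist1h or Hist2h name. The rule took 56 of 20066 genes, 8 for the linker histone H1, 11 for H2A, 14 for H2B, 11 for H3 and 12 for H4. Of these genes, 47 lie in the large histone cluster of chromosome 13 and 7 in the cluster of chromosome 3. The other two, H1f0 on chromosome 15 and H1f10 on chromosome 6, are replication-independent linker histones that the rule takes by name.

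All cells were CMs isolated from C57BL/6 pups of age P0-1, labelled with no other allele, and all were kept in culture for 96 h with an addition to the medium. The control group received dimethylsulfoxide (DMSO) and the treated group cell-permeable αKG, labelled 100 µM, with 3 libraries of total RNA in each. Total RNA libraries do not select for a poly(A) tail. In the study's methods a sample of neonatal CMs stands for a single isolation from hearts that were pooled, but the labels do not say whether this holds for these libraries or whether the 3 of a group came from separate cultures. If they did not, the p-values measure only the spread between these samples, which may be technical. In such cultures, fewer cells of a type and less RNA per cell cannot be told apart.

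Core histones H2A, H2B, H3 and H4 form the octamer that DNA wraps around, and H1 binds the linker DNA between octamers. Most of their genes are clustered, lack introns and are transcribed mainly in S phase, when new DNA has to be packaged. Their mRNAs normally end in a short stem-loop instead of a poly(A) tail, which is bound by the stem-loop binding protein SLBP and ties the stability of the mRNA to DNA synthesis. CMs of newborn mice leave the cell cycle within days after birth, and the study asked whether αKG keeps them dividing.

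The stem-loop was searched in the GENCODE M21 transcript models (GRCm38) downstream of the coding sequence, and 36 of the 56 genes held a match. The 36 matches comprised 8 different sequences of 16 bases and began 25 to 50 bases after the last coding base. They are shown because they mark where the replication-dependent mRNA normally ends, with 1 gene for each different sequence. Letters in capitals are the stem-loop and those in lower case are the 5 bases on each side.
H1f2 (chr13:23739507-23739532, plus strand): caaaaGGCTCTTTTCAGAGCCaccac
H4c4 (chr13:23581945-23581970, plus strand): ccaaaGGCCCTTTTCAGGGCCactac
H3c6 (chr13:23561898-23561923, minus strand): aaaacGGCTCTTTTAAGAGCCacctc
H4c14 (chr3:96262934-96262959, minus strand): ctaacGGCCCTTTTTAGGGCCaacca
H4c11 (chr13:21735432-21735457, plus strand): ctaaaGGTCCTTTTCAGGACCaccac
H4c1 (chr13:23760795-23760820, minus strand): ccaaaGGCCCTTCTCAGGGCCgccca
H3c8 (chr13:23535884-23535909, plus strand): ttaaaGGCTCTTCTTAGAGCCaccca
H2ac20 (chr3:96220413-96220438, minus strand): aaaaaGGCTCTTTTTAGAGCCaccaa
The sequence shown for H1f2 was shared by 17 genes of the H1, H2A, H2B and H3 families. That of H4c4 was found in 6 genes, all for H4, and that of H3c6 in 6 genes of the H1, H2B and H3 families. The sequences of H4c14 and H4c11 were each found in 2 H4 genes, and the remaining 3 in 1 gene each. Of the 20 genes without a match, 13 had a model that ended within 5 bases after the coding sequence, so the window searched did not reach the position of a stem-loop.

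In 19 of the 36 genes the annotated exon ran more than 100 bases past the stem-loop, by 4884 bases in H1f3, 1153 bases in H1f4, 840 bases in H1f2 and 770 bases in H4c4. Values of these genes therefore include any read from transcripts that continue beyond the usual end. Over all 56 genes, these included, the median exon length was 536.5 bases, against 4486 bases over the protein-coding genes of the table. Of the 56 models, 53 consisted of a single exon.

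Near-identical copies limit what can be counted for histones, because the authors excluded reads that aligned to more than 1 place or gene. Of all 75-base stretches in a gene model, the length of a read here, a median of 62.3% occurred in no other annotated gene. This share had a median of 97% in H1 genes, 69.95% in H4, 57.85% in H2B, 41.4% in H3 and 37.6% in H2A. It was 0% in H2bc18 and H3c13, whose values are uncertain, and below 50% in 23 genes. The 12 H4 genes encode 1 and the same predicted protein and the 11 H3 genes 2, whereas the 8 H1 genes encode 8. Exons of 18 members also overlapped those of other annotated genes, among them all 11 H2A genes with a gene on the opposite strand, and H1f4 with H2bc6 on the same strand. The library kit keeps the strand, but the counting was not stated to use it, so values of genes in such pairs are uncertain. A 75-base stretch shared with an overlapping gene also counts as not unique here, so the shares above mix copies with overlaps. H2bc18 and H3c13 are among the 18 members with an overlap.

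**Figure D1:**
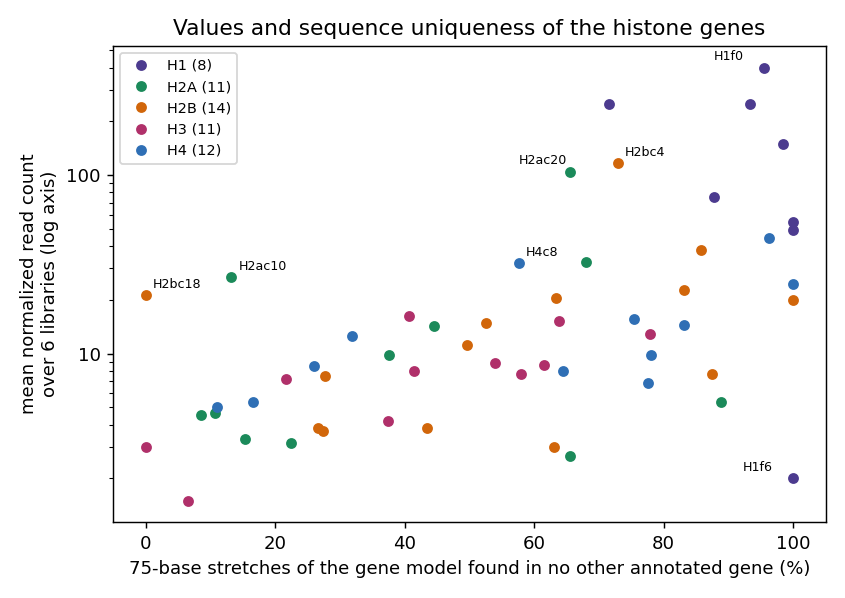
Mean normalized read count over the 6 libraries (log axis) against the percentage of 75-base stretches of the gene model found in no other annotated gene, with 1 point for each of 56 histone genes coloured by family. The H1 genes lie at 71.6% or above, H2bc18 reaches a mean of 21.3 although no stretch of its model was unique, and H1f6 lies at a mean of 2 with all stretches unique.

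Promoters were available for 47 of the genes as RefSeq sequences (GRCm38.p6) from 250 bases before to 50 bases after the start. Searched on both strands, CCAAT was found in 39 of 47 (83%), against 37.4% of 32851 promoters, and TATAAA in 26 of 47 (55.3%), against 13.6%. The octamer ATTTGCAT, a binding site of POU factors known from H2B promoters, was found in 10 (21.3%, against 1.7% of all promoters), which were 5 of 10 H2A and 5 of 11 H2B promoters. Windows of neighbouring genes on opposite strands can overlap, and the same octamer was counted in both H2ac8 and H2bc8, and in both H2ac12 and H2bc12. Counts of the other motifs share this limit. The H1 box AAACACA was found in 7 (14.9%, against 7.2%), of which 5 were among the 8 H1 promoters. Promoters of 3 genes whose values are given below are printed, with matches to any of these motifs on either strand in capitals.
H1f4 (chr13:23622509-23622808, minus strand): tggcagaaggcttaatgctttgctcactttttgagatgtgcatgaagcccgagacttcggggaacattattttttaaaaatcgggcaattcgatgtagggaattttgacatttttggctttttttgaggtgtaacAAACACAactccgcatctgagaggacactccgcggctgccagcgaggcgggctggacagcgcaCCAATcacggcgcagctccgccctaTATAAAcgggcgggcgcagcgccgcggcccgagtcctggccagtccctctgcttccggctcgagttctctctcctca
H2ac20 (chr3:96220831-96221130, minus strand): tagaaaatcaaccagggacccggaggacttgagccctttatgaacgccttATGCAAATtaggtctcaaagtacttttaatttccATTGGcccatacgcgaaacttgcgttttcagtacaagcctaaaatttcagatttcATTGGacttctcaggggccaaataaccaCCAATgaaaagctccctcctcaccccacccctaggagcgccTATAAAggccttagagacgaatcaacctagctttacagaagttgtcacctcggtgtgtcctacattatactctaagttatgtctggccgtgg
H4c8 (chr13:23530794-23531093, plus strand): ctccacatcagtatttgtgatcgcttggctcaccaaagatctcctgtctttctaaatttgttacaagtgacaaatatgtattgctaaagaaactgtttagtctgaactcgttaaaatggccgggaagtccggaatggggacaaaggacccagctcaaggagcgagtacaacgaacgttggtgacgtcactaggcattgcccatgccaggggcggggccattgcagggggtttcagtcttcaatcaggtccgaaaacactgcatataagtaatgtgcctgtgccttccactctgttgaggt
H1f4 held an H1 box, CCAAT and TATAAA, H2ac20 held the octamer, CCAAT and TATAAA, and none of these letters stood in the window of H4c8.

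Over the whole table, libraries held 3725428 to 4427938 estimated reads in genes, and 1474 to 2578 of these lay in histone genes. αKG replicate 3 correlated with the DMSO libraries at 0.977 to 0.98 (Pearson, log2 values across genes) and with αKG replicates 1 and 2 at 0.962 and 0.963, so that it stood apart from its group. Between DMSO replicates 2 and 3 the chi-square over 13391 genes was 1.01 per gene, as counting error alone gives, but over 64 genes of the S phase, G2 and mitosis lists it was 6.76 per gene, with 59 higher in replicate 2, and the 2 libraries were counted separately. All 14 CM markers were listed, and 1 was called higher. Their summed value was 78448, 81288 and 80720 in DMSO and 113469, 117011 and 83688 in αKG, so αKG replicate 3 lay nearest to DMSO. Sums of other markers also differed between groups or set αKG replicate 3 apart. For 12 endothelial genes, of which 8 were called lower, the sum was 2291 to 2413 in DMSO and 1581 to 1725 in αKG. Over 12 fibroblast genes, none of them called, the sum was 6082 to 6367 in DMSO, 11692 and 11274 in αKG replicates 1 and 2, and 5910 in αKG replicate 3. Over 10 epicardial genes, none of them called, it was 527 to 586 in DMSO, 1320 and 1288 in αKG replicates 1 and 2, and 532 in αKG replicate 3. Of 9 mural genes 2 were called higher, and of 12 macrophage genes 5 were listed, with sums of 23 to 41 and 0 called. The part of these cells in the histone values was not tested.

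Normalized read counts of histone genes were low in these libraries. Summed over the 56 genes, the normalized read count was 2237, 1915 and 2061 in DMSO and 1589, 1862 and 2423 in αKG, and H1 genes made up 60.9% of the total. Only 6 genes had a mean of at least 100 and 19 a mean of at least 20, while 28 had a mean under 10, against 33.2% of the genes of the table. These counts are not corrected for the short models or for uniqueness, and H1 models had the highest median share of unique stretches. They therefore do not give the level of histone mRNA or the part of H1 in it. Per 1000 unique 75-base stretches of the annotated model, and among genes with at least 50 such stretches, the mean level was highest for H2ac20 (357.9), followed by H1f0 (211.2), H1f4 (187.2), H1f2 (179.5), H4c12 (164.5), H2ac15 (149.8), H2bc4 (147.9) and H4c8 (141.1). This scale depends on the annotated length, so that genes whose model runs far past the coding sequence, such as H1f3, H2ac6 and H2bc21, come out low on it. H1f3, with a model of 7425 bases, was at 20.6. The family medians, which share this limit, were 78.2 for H1, 70.7 for H2A, 46.7 for H2B, 43.2 for H4 and 35.4 for H3, over the same genes. This scale also drops stretches shared with an overlapping gene, and H4c12 rests on 76 stretches and a mean of 12.5. Per 1000 exon bases, regardless of uniqueness, H2ac20 was at 201.0, H1f0 at 194.5, H2bc4 at 100.9 and H4c12 at 40.1.

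**Figure D2:**
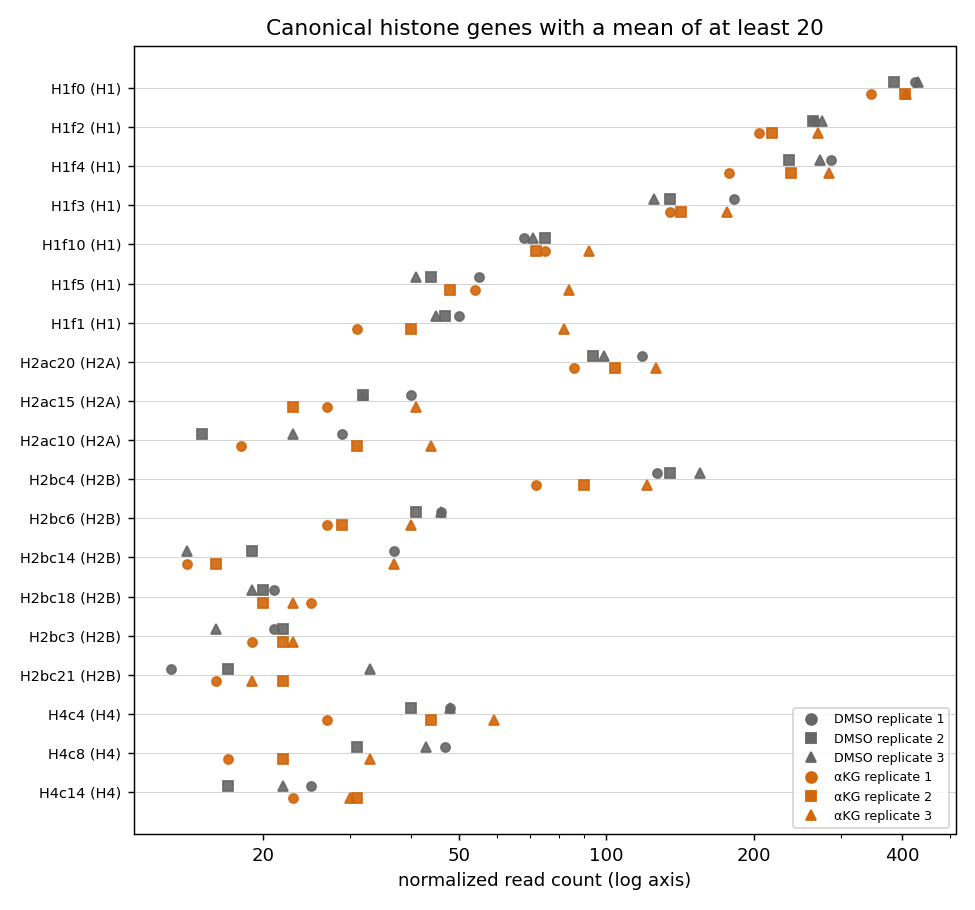
Normalized read counts (log axis) of the 19 histone genes with a mean of at least 20, with 1 point per library, DMSO in grey and αKG in orange, the marker giving the replicate. H2bc4 and H2bc6 have all αKG points to the left of all DMSO points, and the triangle of αKG replicate 3 is the rightmost αKG point in 16 of 19 genes.

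Whether αKG altered the level of histone mRNAs was tested with limma on log2(value + 1) over all genes. None of the 56 genes passed an adjusted p of 0.05, where 3.78% of all genes passed, 2.83% higher and 0.952% lower in αKG (5.74% in either direction at a mean of at least 20), and 2 had an unadjusted p under 0.05, H2bc4 and H4c8, against 28.1%. Limma-voom and limma without a variance trend called 0 as well, with 3 unadjusted each, where they called 351 and 27 of the 20066 genes. The median log2 difference (αKG minus DMSO) was 0.03 over the histone genes and 0.04 over all genes, and 30 of 56 differences were positive. In H2bc4 and H2bc6 every αKG library lay below every DMSO library (14.6% of all genes did so), and in no histone gene did every αKG library lie above (13.7%). Low values make such separation and small p-values harder to reach, and the 2 separated genes are among the 19 whose mean was 20 or more, where 22.4% of table genes of that level were lower and 15.5% higher throughout.

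The precision differed widely between members, with standard errors from 0.09 to 0.72 on the log2 scale. The 95% interval of the difference stayed within a 2-fold change in either direction for 17 of the 56 genes. It did not include a 2-fold higher level in 32 genes and a 2-fold lower level in 35 genes. For the other genes it included a 2-fold change in at least 1 direction.

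**Figure D3:**
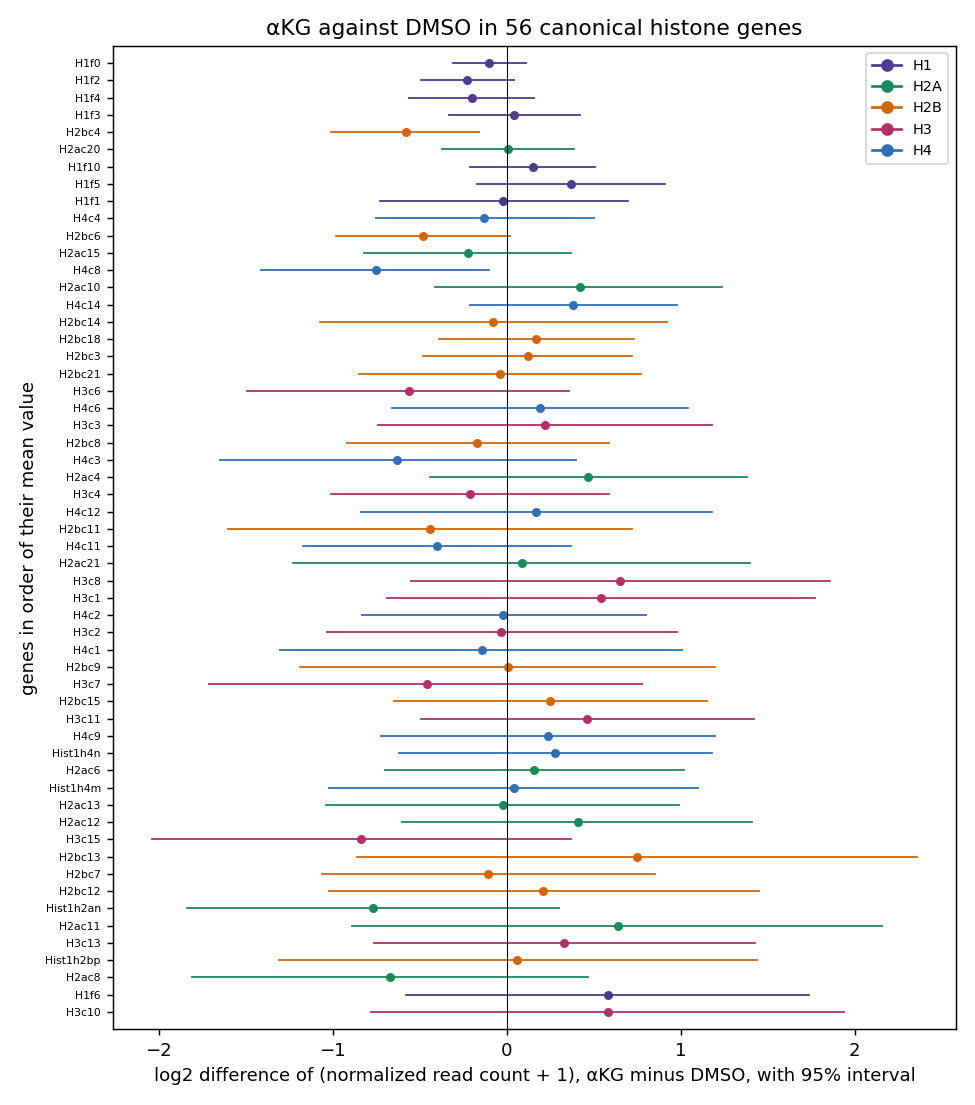
Log2 difference of (normalized read count + 1), αKG minus DMSO, for each of the 56 histone genes, with its 95% interval as a line, in order of mean value from top to bottom and coloured by family. The intervals widen downwards as values fall, and those of H2bc4 and H4c8 do not include 0.

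Among the linker histones, H1f0 had the highest value of all members. It encodes the linker histone that typically accumulates in cells that have stopped dividing. Its normalized read count was 424, 384 and 431 in DMSO and 346, 405 and 408 in αKG, so that the groups overlapped (log2 difference -0.10 ± 0.09 SE, 95% interval -0.31 to 0.11, limma adjusted p = 0.518). H1f10, the other replication-independent member, was at 68, 75 and 71 in DMSO and at 75, 72 and 92 in αKG (0.15 ± 0.16, -0.21 to 0.51, limma adjusted p = 0.559).

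H1f2 and H1f4 encode the somatic linker histones that were highest here after H1f0. H1f2 (ENSMUSG00000036181, chr13:23738808-23740367) was at 265, 263 and 275 in DMSO and at 204, 217 and 270 in αKG. Replicates 1 and 2 of αKG lay below all DMSO libraries, and replicate 3 lay among them (log2 difference -0.23 ± 0.12, -0.49 to 0.04, limma adjusted p = 0.235). H1f4 was at 286, 235 and 272 in DMSO and at 178, 238 and 284 in αKG (-0.20 ± 0.16, -0.56 to 0.16, limma adjusted p = 0.439), with 1 αKG library below the DMSO range. H1f3 was at 182, 135 and 125 in DMSO and at 135, 142 and 176 in αKG, and its groups overlapped (0.04 ± 0.17).

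H1f5 and H1f1, also replication-dependent, had their highest value in αKG replicate 3. H1f5 was at 55, 44 and 41 in DMSO and at 54, 48 and 84 in αKG (log2 difference 0.37 ± 0.24, limma adjusted p = 0.333). H1f1 was at 50, 47 and 45 in DMSO and at 31, 40 and 82 in αKG (-0.02 ± 0.32). In H1f1, αKG replicates 1 and 2 were below and αKG replicate 3 above all DMSO libraries. H1f6, the testis-specific linker histone, was at 1 to 2 in DMSO and 1 to 4 in αKG.

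The H2A genes were led by H2ac20 of the chromosome 3 cluster. It was at 118, 94 and 99 in DMSO and at 86, 104 and 126 in αKG (log2 difference 0.01 ± 0.17, -0.37 to 0.39, limma adjusted p = 0.973), with the lowest and the highest value both in αKG. H2ac15 was at 40, 32 and 32 in DMSO and at 27, 23 and 41 in αKG (-0.22 ± 0.27). H2ac10, which had the largest positive difference of the 19 members with such a level or above (a mean of 20), was at 29, 15 and 23 in DMSO and at 18, 31 and 44 in αKG (0.42 ± 0.37, -0.41 to 1.24, limma adjusted p = 0.478). Only 13.2% of the 75-base stretches of H2ac10 are unique and a gene lies on its opposite strand, so its value is uncertain. Of the 11 H2A genes, 7 had a positive difference.

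H2bc4 was the H2B gene with the highest value and had the smallest p of all members. It was at 127, 135 and 155 in DMSO and at 72, 90 and 121 in αKG, so that each αKG library was below each DMSO library. The log2 difference was -0.58 ± 0.19 (-1.01 to -0.16, limma adjusted p = 0.0955). The gene (ENSMUSG00000018102, chr13:23684199-23692908, plus strand) has an annotated transcript of 1156 bases, of which 745 lie after the coding sequence, and no stem-loop match in it. Without αKG replicate 3 the difference was -0.78 and passed (limma adjusted p = 0.00733; 0.00733 to 0.331 over 17 alternatives).

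H2bc6 was at 46, 41 and 46 in DMSO and at 27, 29 and 40 in αKG, again with no overlap (log2 difference -0.48 ± 0.22, -0.98 to 0.02, limma adjusted p = 0.194). Its annotation on chr13:23583670-23621124 reaches H1f4 on the same strand, and the authors excluded reads that overlapped more than 1 gene. H2bc14 was at 37, 19 and 14 in DMSO and at 14, 16 and 37 in αKG (-0.08 ± 0.44), so that a single library was high in each group. The other 11 H2B genes had values of 0 to 33, and differences from -0.44 to 0.75.

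No H3 gene reached a mean of 20. H3c6 had the highest mean, with 18, 19 and 19 in DMSO and 6, 15 and 20 in αKG (log2 difference -0.56 ± 0.41, -1.49 to 0.36, limma adjusted p = 0.388). H3c3 was at 21, 13 and 8 in DMSO and at 12, 12 and 25 in αKG (0.22 ± 0.43), and H3c4 at 16, 9 and 17 in DMSO and at 13, 9 and 13 in αKG (-0.21 ± 0.36). The groups overlapped in all 11 H3 genes, and 7 of them were higher in αKG replicate 3 than in every DMSO library.

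Among the H4 genes, H4c8 had the lowest difference of all members with a mean of at least 20. It was at 47, 31 and 43 in DMSO and at 17, 22 and 33 in αKG, so that only αKG replicate 3 reached the DMSO range (log2 difference -0.75 ± 0.29, -1.41 to -0.10, limma adjusted p = 0.135). H4c8 lies on chr13:23531050-23531519, its stem-loop sequence equals that printed for H4c4 in the 16 capitals, and 57.6% of its stretches are unique. H4c4 was at 48, 40 and 48 in DMSO and at 27, 44 and 59 in αKG (-0.13 ± 0.28), and H4c14 at 25, 17 and 22 in DMSO and at 23, 31 and 30 in αKG (0.38 ± 0.27, limma adjusted p = 0.363). Although the encoded protein is the same, the signs of the 12 H4 differences were divided, with 6 positive.

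The 3 αKG libraries differed among themselves. In αKG replicate 1, 20 of 56 histone genes lay below and 2 above all DMSO libraries, where 34.3% of all genes lay below and 40.3% above. In αKG replicate 2, 16 lay below (33.3% of all genes) and 6 above (39.1%). In αKG replicate 3, 3 lay below (27% of all genes) and 31 above (27.3%). The median log2 difference from the DMSO mean was -0.25, -0.03 and 0.43 in the 3 αKG libraries, beside 0.05, 0.04 and 0.00 over all genes. αKG replicate 3 held the highest αKG value in 45 of the 56 genes (36.9% of all genes), and in 16 of the 19 with a mean of at least 20 (49.6% of table genes of that level). Over 30 histone genes with at least 10 estimated reads, chi-square per gene was 6.69 between αKG replicates 1 and 3 and 3.49 between replicates 2 and 3, against 1.22 between replicates 1 and 2. Over all 13391 genes with such a level it was 10.9, 9.89 and 1.53 in the same order, so αKG replicate 3 stood apart across the table and not in the histone genes alone.

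Without αKG replicate 3, which leaves 2 treated libraries, 4 histone genes passed the threshold, all lower: H1f2, H2bc4, H2bc6 and H4c8. Their log2 differences were then -0.35 (limma adjusted p = 0.00843), -0.78 (0.00733), -0.64 (0.0199) and -1.0 (0.0207). In that fit 37.2% of all genes passed, 17.9% lower. Both remaining αKG libraries lay below all DMSO libraries in 12 of the 56 genes (27.4% of all genes) and above them in 0 (30.4%), and among the 19 genes with a mean of at least 20 in 6 (41.1%) and 0 (30.2%).

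By family, summed values in αKG replicate 1 were at 65.1% to 81.5% of the DMSO mean, with H4 lowest and H1 highest. In αKG replicate 2 they were at 73.8% for H2B, 88.3% for H4, 90.9% for H3, 92.4% for H1 and 101.3% for H2A. In αKG replicate 3 they were at 107.2% for H2B, 111.2% for H1, 127% for H4, 141.4% for H2A and 155.5% for H3. H2B had the lowest percentage of the 5 families in αKG replicates 2 and 3. H2bc4 alone gave 139.0 of the mean H2B sum of 322.7 in DMSO and 94.3 of 267.3 in αKG, so that this order depends in part on 1 gene. H1f0 and H1f10 together, whose transcription does not need S phase, were at 86.9%, 98.5% and 103.2%. DMSO replicate 1 had the highest DMSO value in 33 of 56 genes (30.2% of all genes).

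**Figure D4:**
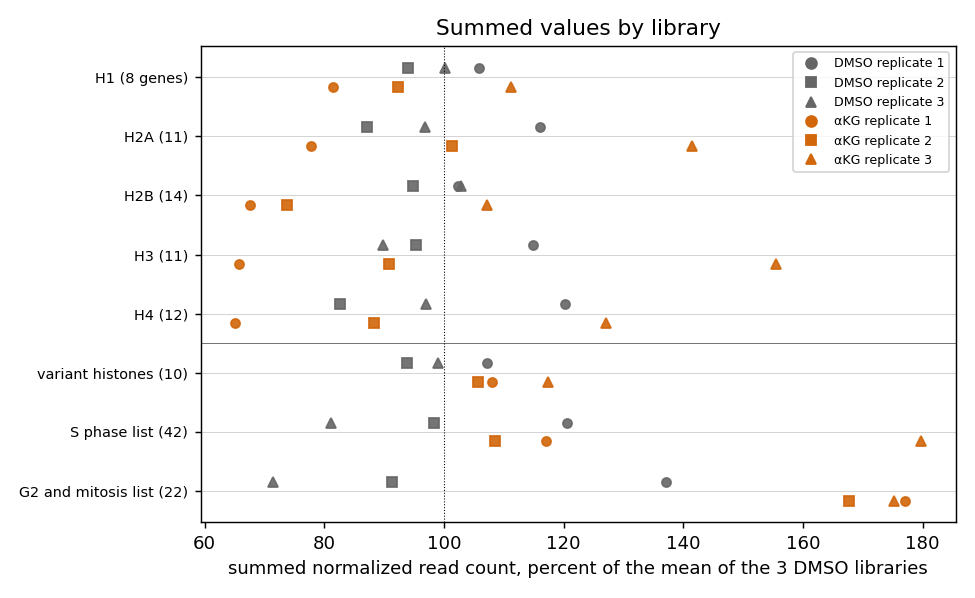
Summed normalized read count of each histone family and of 3 other gene lists in each library, as a percentage of the mean of the 3 DMSO libraries (dotted line at 100), with DMSO in grey and αKG in orange and the marker giving the replicate. In each histone family the αKG points span both sides of the line, while all αKG points of the 3 other lists lie above it. The variant sum includes Cenpa, with a mean of 196.3 in DMSO and 426.7 in αKG. Over the 10 variant genes the median log2 difference from DMSO was -0.11, -0.02 and 0.18 in αKG replicates 1 to 3, so not all of them lie above.

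The genes were also compared by the form of their annotated model. In the 19 genes whose model ran over 100 bases past the stem-loop the median log2 difference was -0.20, with -0.48, -0.30 and 0.26 in αKG replicates 1 to 3. In the 17 with a model ending within 100 bases of it the median was 0.12, with -0.18, 0.08 and 0.50, and in the 20 without a match it was 0.16, with -0.25, 0.03 and 0.78. The order of the αKG libraries was the same in the 3 classes, and the difference between classes was not tested. Values of short genes also moved with the library: among 171 protein-coding genes with exons under 1000 bases and a mean of at least 10, the median difference from DMSO was -0.43, -0.20 and -0.08 in αKG replicates 1 to 3, beside -0.26, -0.13 and 0.28 in the 28 histone genes with such a mean. The 171 still held the histone genes of that length, and some of the 28 have longer exons, so the sets are neither separate nor matched. After correction for exon length and GC content, the histone median was 0.02 and 0 genes passed.

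Genes that act in S phase were read beside the histones, since histone mRNA normally accompanies DNA synthesis. All 42 listed S phase genes had a positive difference, with a median of 0.39, and 3 passed: Pole, the catalytic subunit of the leading-strand polymerase, Pola1, the catalytic subunit of the primase-coupled polymerase, and Tk1, thymidine kinase. Pole was at 373, 275 and 186 in DMSO and at 524, 456 and 717 in αKG (log2 difference 1.05 ± 0.24, limma adjusted p = 0.0445). Pola1 did not pass after correction for exon length and GC content (0.41, limma adjusted p = 0.0959). The summed value of the list was 10565, 8613 and 7100 in DMSO and 10254, 9513 and 15747 in αKG. It was highest in αKG replicate 3, as were the histone sums. In αKG replicates 1 and 2 it stood at 117.1% and 108.6% of the DMSO mean, where the core histones stood at 69.3% and 86.1%. Both S phase sums lay below that of DMSO replicate 1. Exon length was also not matched between the sets. For protein-coding genes with exons under 1000 bases, the median difference was -0.43 and -0.20 in αKG replicates 1 and 2. For exons of 8000 bases or more it was 0.09 and 0.08, both at a mean of at least 10. Any effect of length on this comparison was not tested.

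In the list for G2 and mitosis 22 of 22 differences were positive, with a median of 0.82, and 8 passed. Mki67, a marker of cycling cells, was at 2738, 2034 and 1601 in DMSO and rose to 3632, 3570 and 3516 in αKG (0.78 ± 0.15, limma adjusted p = 0.034). Top2a, topoisomerase IIα, rose from 1186, 843 and 614 to 1797, 1657 and 1732 (1.02 ± 0.19, limma adjusted p = 0.0289). The sum of the list stood at 177%, 167.7% and 175.3% of the DMSO mean in αKG replicates 1 to 3, where the core histones stood at 69.3%, 86.1% and 126%. In DMSO the sum was 6109 to 11724, and here too exon length was not matched between the sets. Over the 5 lists of pathway genes 14 genes passed, and 0 passed when DMSO replicate 2 or 3 or αKG replicate 1 or 2 was left out. In those fits 3, 4, 0 and 0 of all genes passed.

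Variant histones are mostly made outside S phase, from genes with polyadenylated mRNA. Of the 10 listed, 1 passed: Cenpa, the H3 variant of centromeres, rose from 270, 166 and 153 to 535, 415 and 330 (log2 difference 1.13 ± 0.22, limma adjusted p = 0.0357). H3f3b and H3f3a, which encode the replacement histone H3.3, were at 277, 293 and 281 against 279, 279 and 289 (-0.01 ± 0.08) and at 99, 96 and 91 against 89, 87 and 105 (-0.03 ± 0.14). H2ax, the variant phosphorylated at DNA breaks, was at 104, 81 and 83 in DMSO and at 81, 88 and 133 in αKG (0.15 ± 0.20).

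Among 22 genes of the histone locus body and of histone mRNA processing 0 passed and 7 had an unadjusted p under 0.05 (28.1% of all genes, 36.5% at a mean of at least 20), with a median difference of -0.07. The 3 with the highest mean were Tut7, a uridylyltransferase of histone mRNA decay (-0.07 ± 0.08), Srrt (-0.01 ± 0.09) and Upf1, a helicase of mRNA decay. Upf1 was at 764, 828 and 758 in DMSO and at 576, 510 and 718 in αKG, with no overlap (-0.39 ± 0.11, limma adjusted p = 0.0781). Slbp, which encodes the protein that binds the stem-loops printed above, was at 193, 177 and 165 in DMSO and at 158, 160 and 237 in αKG (0.03 ± 0.16, limma adjusted p = 0.92). Npat, the cyclin E-CDK2 substrate that drives histone transcription, was at 390, 403 and 386 in DMSO and at 385, 423 and 498 in αKG (0.14 ± 0.10, limma adjusted p = 0.385). In both genes αKG replicate 3 was the highest of the 6 libraries.

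Of 26 histone chaperones and assembly factors 2 passed. Hjurp, the chaperone that deposits CENP-A, rose from 738, 607 and 487 to 1078, 897 and 1018 (log2 difference 0.72 ± 0.14, limma adjusted p = 0.0315), and Nap1l1, a chaperone of H2A and H2B, from 469, 450 and 472 to 568, 616 and 567 (0.33 ± 0.07, limma adjusted p = 0.0445). Nap1l1 did not pass after correction for exon length and GC content (0.07, limma adjusted p = 0.582). Chaf1a, the large subunit of the assembly factor that places new H3 and H4 behind the replication fork, was at 340, 297 and 256 in DMSO and at 401, 370 and 570 in αKG (0.57 ± 0.16, limma adjusted p = 0.0751). The median over the list was 0.06.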

How the data were processed

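Total RNA libraries of neonatal CMs, 3 with DMSO and 3 with αKG, were analysed. Per the study's methods and processing notes, the authors trimmed reads (Trimmomatic 0.39), aligned them to mm10 (GRCm38.p5) with STAR 2.7.10a, counted them per gene with featureCounts 2.0.3, without reads of several genes or places, and normalized with DESeq2 1.30.1. The deposited values, called normalized read counts in the text, are treated as a score, since the authors rounded them to whole numbers after division by a size factor, and count tests were not used. The value of 1 read, estimated from steps between low values (0.926 to 1.1188), gave estimated reads; reads copied by PCR are no independent molecules, and intervals from reads hold for counting error alone. The labels give 100 µM αKG and the study's methods another concentration.

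Log2(value + 1) was fitted with limma 3.58.1 (R 4.3.3), treatment as the only term and the variance following the mean, over all 20066 genes with no filter. Adjusted p-values are Benjamini-Hochberg values, with a threshold of 0.05, and intervals cover 95%. Scripts were tested on simulated data. Sums and medians over genes carry no test. A pseudocount of 1 understates changes of low genes.

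Gene models, stem-loops and 75-base stretches (both strands, exact matches, against all transcripts) come from GENCODE M21. Of the table's genes, 99% had positions identical to it. Of 202 list genes 186 were matched. M21 holds 67 protein-coding genes of histone clusters, 10 of which are not analysed here.

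The members and lists were chosen with earlier results of these data known. Named members were the 3 with the highest mean of each family and those with the largest and smallest difference at a mean of at least 20. From each pathway list up to 5 passing genes with the smallest p, or else the 3 with the highest mean, qualified, and not all are printed. H1f1, H1f3, H1f5, H1f6, H1f10, H2ax, H3f3a, H3f3b, Slbp, Npat and Chaf1a were added for their role, after values were seen. Alternatives were filter, pseudocount, scaling, variance model, a replicate block, length and GC correction (spline with 5 df) and libraries left out.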

Additional observations from a re-analysis of the deposited data

How the results depend on the processing

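The count of histone genes past the threshold was 0 at a mean of at least 10, at pseudocounts of 0.1 and 5, with libraries scaled to the same total, with quantile normalization, without the variance trend, with limma-voom, with length and GC correction, and with DMSO replicates 2 and 3 averaged. It was 1 (H2bc4, limma adjusted p = 0.0356) with length and GC correction and the replicate block together, 2 at an unadjusted p under 0.05, and 0 to 4 with single libraries left out, the 4 without αKG replicate 3. The median histone difference ranged from -0.26 (quantile normalization) to 0.17 (without αKG replicate 1), and the difference of the summed values, -0.10, from -0.26 to 0.04. The 14 pathway genes became 4 at a pseudocount of 0.1, 0 without the variance trend, 7 with limma-voom, 2 with the replicate block, 0 with DMSO replicates 2 and 3 averaged, 53 unadjusted, and 0 to 34 with single libraries left out. Over all genes the 759 became 872 at a mean of at least 10, 346 and 832 at pseudocounts of 0.1 and 5, 915 with equal totals, 641 with quantile normalization, 27 without the variance trend, 351 with limma-voom, 46 with the replicate block, 1254 with length and GC correction (1771 with the block, where H2bc4 passed) and 19 with DMSO replicates 2 and 3 averaged. It was 152, 3 and 4 without DMSO replicate 1, 2 or 3, and 0, 0 and 7466 without αKG replicate 1, 2 or 3. Where almost no gene passed, a histone count of 0 says little.

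Same-numbered samples correlated at -0.0744, 0.136 and 0.0019 in their deviations from the group means, and none correlated best with its own number, so they share only a number. The replicate block left the histone count at 0.

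Of 255 values for 15 named histone genes under alternatives, 14 changed sign, none of them past the threshold. H2ac20 became -0.01 with equal totals and with limma-voom, -0.02 with quantile normalization, -0.04 with DMSO replicates 2 and 3 averaged, and -0.05, -0.02 and -0.12 without DMSO replicate 2, DMSO replicate 3 or αKG replicate 3 (-0.12 to 0.15 over single libraries left out). H3c3 became -0.17 with quantile normalization, -0.10 without DMSO replicate 3 and -0.11 without αKG replicate 3 (up to 0.55 without DMSO replicate 1). H2bc14 became 0.30, 0.18 and 0.09 without DMSO replicate 1, αKG replicate 1 or αKG replicate 2 (-0.5 without αKG replicate 3), and H4c4 0.17 without αKG replicate 1 (-0.38 without αKG replicate 3). Srrt became 0.01 with the length and GC correction, with and without the replicate block, and 0.07 without αKG replicate 2 (-0.08 without αKG replicate 3). The cause was not tested.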

Other observations

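A further 3 genes of histone clusters fall outside the naming rule but carried a Hist3h or Hist4h name in older annotation, and their values were seen before they were chosen. H2aw, on chromosome 11, was at 41, 49 and 45 normalized read counts in DMSO and at 25, 22 and 28 in αKG, so that the groups did not overlap (log2 difference -0.83 ± 0.22, limma adjusted p = 0.0609). H4f16, on chromosome 6, was at 32, 28 and 34 in DMSO and at 14, 26 and 39 in αKG (-0.35 ± 0.35, limma adjusted p = 0.53). H2bu2 was at 0 in 5 libraries and at 2 in αKG replicate 2.

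Histone genes of a divergent pair, which share the stretch between their starts, differed in value in the 3 pairs with a member at a mean of at least 20. H2ac6 and H2bc4 lie 250 bases apart and had means of 5.3 and 116.7, H2ac20 and H2bc21 lie 238 bases apart and had means of 104.5 and 20, and H2ac15 and H2bc15 lie 295 bases apart and had means of 32.5 and 7.5. These values are not corrected for length or uniqueness, and the models of H2ac6 and H2bc21 run far past their coding sequence.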
